A study of Mus musculus with 16 samples.

Results

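Heat-shock proteins and chaperones of the mouse are described here through 10 genes, out of 12298 genes tested and 16535 genes with a named probe on the array. The cytosolic stress-inducible members were Hspa1a, Hspa1b, Dnajb1, Hsp90aa1, Hsph1 and Hspb1, the constitutive cytosolic member was Hspa8, the endoplasmic reticulum (ER) member was Hspa5, and the mitochondrial members were Hspd1 and Hspe1. They were chosen by name, with earlier results of these data known, and were found through the RefSeq identifier of their probes. All 10 passed the filter on dim probes in at least 1 probe, and 15 probes covered them, 2 each for Hspa1a, Hspa1b, Dnajb1, Hspa8 and Hspd1 and 1 for each of the others.

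Gene expression had been measured on 16 Agilent 2-colour mouse arrays. On 8 arrays the Cy5 channel carried RNA of a tumour fraction, called TIC in the labels, which was mashed and enriched in infiltrating inflammatory cells on a density gradient. On the other 8 arrays Cy5 carried RNA of blood from tumour-bearing mice, which went straight into RNAlater. All these mice had been given cells of Hepa1-6, a mouse hepatoma line, under the skin 10 days before sampling. The strain field reads C57Bl/6 and the treatment text calls the mice athymic, so the thymus status of these animals is not settled here. Both groups were female and carried the sample numbers 889, 890, 891, 893, 894, 896, 897 and 898. The Cy3 channel of all 16 arrays carried, per the labels, blood RNA of untreated female C57Bl/6 mice, called the reference here. Different RNA kits served the tumour fraction and blood, and each of 4 slides held arrays of 1 group, so kit, slide batch and group cannot be told apart. Nothing in the labels says how many mice gave the reference RNA.

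Chaperones bind unfolded proteins and help them fold, refold or be degraded. HSP70 proteins (Hspa1a, Hspa1b, Hspa8) work with J-domain partners such as Dnajb1 and with exchange factors such as Hsph1, HSP90 proteins mature kinases and steroid receptors, and the small protein Hspb1 holds unfolded clients. The transcription factor HSF1 switches on the inducible set under heat or proteotoxic stress through heat-shock elements in its targets' promoters, whereas Hspa8 is made in unstressed cells. In the ER, Hspa5 (BiP) folds secreted proteins and is induced by the unfolded protein response through ER stress elements. In mitochondria, Hspd1 (HSP60) and its lid Hspe1 (HSP10) form a folding chamber.

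The promoter windows of these classes are shown because the members differ in the regulatory elements that the background above names. RefSeq promoter windows, 250 bases before to 50 after a gene start on build GRCm38.p6, were matched by symbol for 8 of the 10 members and gave 11 windows. Hspa8 and Hsp90aa1 were not among them. Capitals mark matches to the heat-shock element letters GAANNTTC or TTCNNGAA, alone or overlapping by 3 bases as the 3-unit heat-shock element, and to the ER stress element, which is CCAAT and CCACG with 9 free bases between them. Both strands were read, and a 3-unit match contains both short ones.
Hspa1a (chr17:34972107-34972406, minus strand): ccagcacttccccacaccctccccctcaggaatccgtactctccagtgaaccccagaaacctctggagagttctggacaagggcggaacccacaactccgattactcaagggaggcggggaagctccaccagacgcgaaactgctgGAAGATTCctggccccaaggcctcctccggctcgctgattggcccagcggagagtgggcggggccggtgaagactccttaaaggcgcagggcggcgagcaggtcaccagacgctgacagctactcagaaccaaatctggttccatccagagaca
Hspa1b (chr17:34959189-34959488, minus strand): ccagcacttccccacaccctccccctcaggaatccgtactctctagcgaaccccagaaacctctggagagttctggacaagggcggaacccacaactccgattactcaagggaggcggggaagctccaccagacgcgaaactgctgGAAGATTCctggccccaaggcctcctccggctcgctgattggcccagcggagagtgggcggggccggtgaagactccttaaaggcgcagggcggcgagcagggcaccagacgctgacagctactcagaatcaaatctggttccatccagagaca
Hspe1 (chr1:55087898-55088197, plus strand): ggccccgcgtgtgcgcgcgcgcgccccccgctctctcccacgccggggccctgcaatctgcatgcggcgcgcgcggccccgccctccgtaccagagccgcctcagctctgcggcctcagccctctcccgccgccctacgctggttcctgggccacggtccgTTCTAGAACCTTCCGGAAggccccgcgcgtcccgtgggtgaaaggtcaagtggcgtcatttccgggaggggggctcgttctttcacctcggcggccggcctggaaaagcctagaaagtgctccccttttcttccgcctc
Hspa5 (chr2:34771840-34772139, plus strand): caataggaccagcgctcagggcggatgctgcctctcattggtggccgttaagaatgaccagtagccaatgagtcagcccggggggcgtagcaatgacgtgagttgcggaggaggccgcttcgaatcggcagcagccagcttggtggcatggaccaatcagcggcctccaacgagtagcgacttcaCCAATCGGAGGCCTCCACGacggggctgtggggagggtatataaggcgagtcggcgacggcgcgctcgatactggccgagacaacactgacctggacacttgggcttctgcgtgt

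Short heat-shock element letters occurred in 7 of the 11 windows, from 6 of the 8 members, against 15.1% of all 32851 RefSeq windows of the same length. The 2 windows of Hsph1 overlap, and others share or repeat DNA as given below, so these matches are not independent. The 3-unit element, found in 0.603% of all windows, lay in those of Hsph1, Hspd1 and Hspe1. The ER stress element, found in 0.119% of all windows, lay in that of Hspa5. The Hspa1a and Hspa1b windows were alike at 296 of 300 bases, and each held GAANNTTC at positions -104 to -97 relative to the gene start. The Hspe1 window shared 285 bases with a window of Hspd1 on the other strand, so the run from -89 to -72 of Hspe1 is the same DNA as the run from -144 to -127 of Hspd1. Neither window of Dnajb1 held any of these letters. These matches are descriptions of letters and show no binding.

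Before the chaperone values, the reference channel needs a description, since every ratio rests on it. Cy3 signals of the 8 TIC arrays correlated with one another at 0.957 to 0.997 over 19320 probes, and those of the 8 blood arrays at 0.979 to 0.997, but the correlation between arrays of different groups was 0.87 to 0.94. With Cy3 of TIC arrays set against Cy3 of blood arrays in limma, 8.93% of genes were called. A call throughout needed a change of 2-fold or more and a p under 0.05 after Benjamini-Hochberg adjustment across the 26494 probes that passed the filter. Alb, the liver's albumin, had a net Cy3 signal (spot minus local background, in scanner units) of 4658 to 12194 on TIC arrays and of at most 19.5 on blood arrays. C1qa, a complement gene of macrophages, had 257 to 394 in Cy3 on TIC arrays and 5 to 24 on blood arrays. The channel labelled as the same untreated blood RNA was therefore not the same measurement in both sets, and the cause was not tested. Each chaperone is given below both as a ratio to Cy3 and as Cy5 signal. The Cy5 signal is not divided by Cy3, but Cy3 of a probe enters its normalization through the mean of both channels. Ratios of TIC arrays correlated with those of blood arrays at -0.30 to -0.08 over all 41174 probes. The dyes are stated in the labels, so the direction of every ratio was kept.

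Marker genes moved with the groups too. In Cy5, the summed signal of 7 hepatoma markers (Alb, Afp and others) was 53581 to 114727 in TIC and 890 to 986 in blood, and for 5 of the 7 no blood array was well above background. The summed signal of 7 macrophage markers was 6301 to 13890 in TIC against 1772 to 2118 in blood. By ratio, 9 of 10 erythroid, 8 of 8 platelet, 6 of 6 neutrophil and 6 of 6 B cell markers were called lower in TIC than in blood, 3 of 7 macrophage, 4 of 7 hepatoma and 2 of 8 fibroblast and endothelial markers were called higher, and 1 of 6 T cell markers was called lower. These calls are for the main normalization alone. In net Cy5 signal, not scaled between arrays, Retnlg, Csf3r, Blnk, Cd22 and all T cell markers had higher medians in TIC. The other neutrophil and B cell markers had lower ones. The median net Cy5 over all probes was higher in TIC as well, at 23 to 88.5 against 9 to 22.5 in blood. The part of these markers in the chaperone results was not tested. In bulk RNA of this kind, fewer cells of a type and less RNA per cell cannot be told apart.

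By ratio, 4 of the 10 members were called higher in TIC than in blood and 0 lower, where 23.8% of all genes were called in either direction and 12.1% higher. They were Hspa5, Hspe1, Hsp90aa1 and Dnajb1, and the groups of Hsph1 also did not overlap. Hspb1 had a limma adjusted p of 0.0169, under 2-fold, with a value lower in TIC. No blood array was well above background for it in Cy5, so no direction is read. The median change of the members was 0.50 on the log2 scale, against 0.08 over all genes. By Cy5 signal, 7 members were called higher in TIC and 0 lower, where 33.1% of all genes were called and 18.4% higher. Hspb1, at background in blood, is not read in Cy5 either, where it was called lower with 75th percentile scaling, at -1.82, but had an adjusted p of 0.32 with quantile and 0.60 with spike-in scaling. The median Cy5 change of the members was 1.88, against 0.19 over all genes.

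**Figure D1:**
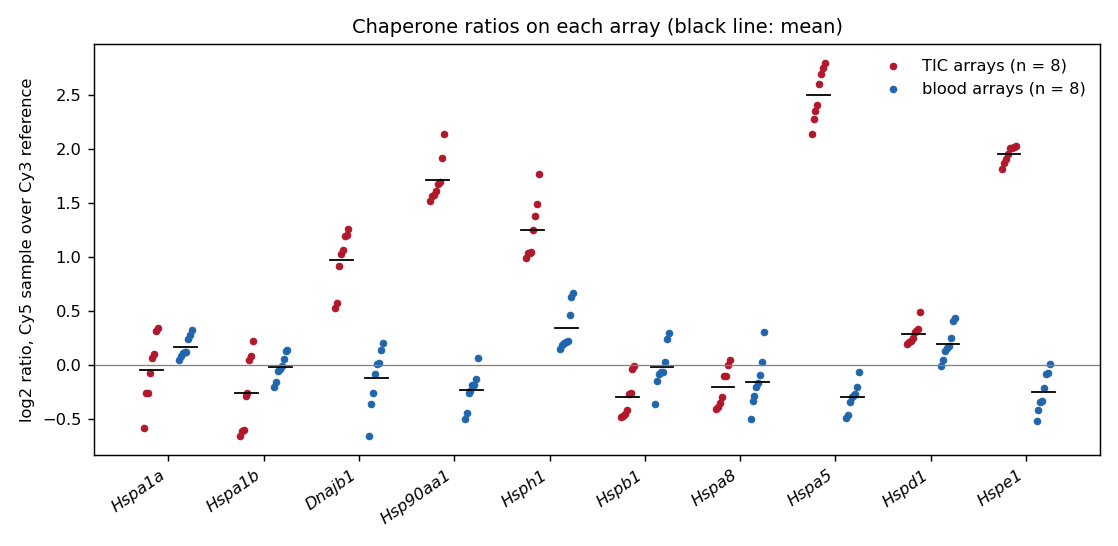
Log2 ratio of Cy5 sample over Cy3 reference (vertical axis) for the brightest probe of each of the 10 chaperones on the 8 TIC arrays (red) and the 8 blood arrays (blue), with black lines at the group means. Hspa5, Hspe1, Hsp90aa1, Dnajb1 and Hsph1 of TIC lie above blood without overlap, and Hspa8, Hspd1 and Hspa1a of both groups lie near 0.

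**Figure D2:**
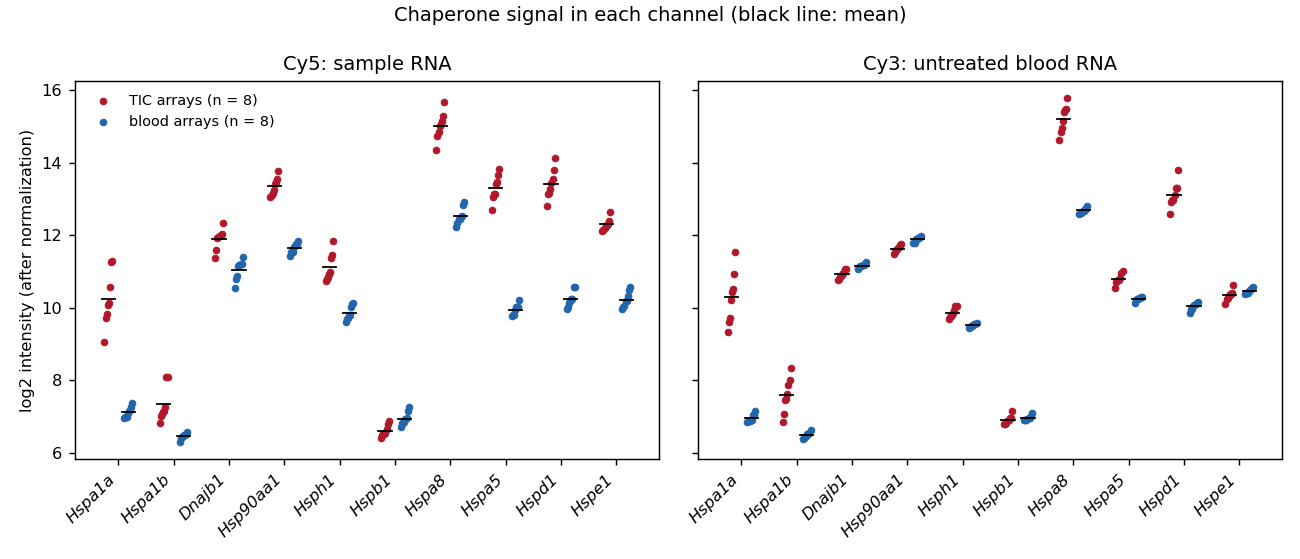
Normalized log2 intensity (vertical axis) of the same probes in Cy5, the sample RNA (left), and in Cy3, labelled as untreated blood RNA (right), on 8 TIC arrays (red) and 8 blood arrays (blue), with black lines at the means. Hspa1a, Hspa8 and Hspd1 were higher on TIC arrays in both channels. Heights of different probes cannot be compared with each other.

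Hspa5, the ER member, had the largest ratio change among the members. Its log2 ratio in TIC had a lowest value of 2.14, a median of 2.51 and a highest of 2.80, against -0.49, -0.29 and -0.06 in blood. All 8 TIC arrays lay above the reference and all 8 blood arrays below it. The difference was 2.80 ± 0.09 (SE, n = 8 each; limma adjusted p = 1.56e-14), a 6.98-fold change. In Cy5, Hspa5 had a lowest log2 signal of 12.69, a median of 13.28 and a highest of 13.82 in TIC, against 9.78, 9.98 and 10.21 in blood. That is 10.2-fold higher in TIC (log2 3.35 ± 0.13; limma adjusted p = 1.21e-14), with no overlap. The net Cy5 signal, not scaled between arrays, was 15924 to 101062 in TIC and 174 to 375 in blood. Cy3 of Hspa5 differed little by comparison, at 0.55 ± 0.06 higher on TIC arrays, under the 2-fold limit.

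The 2 mitochondrial partners were both called higher in Cy5, while by ratio only Hspe1 was. Hspe1, the lid of the chamber, had a log2 ratio of 1.82, 1.99 and 2.04 (lowest, median, highest) in TIC, against -0.52, -0.27 and 0.01 in blood. Its difference was 2.20 ± 0.07 (SE, n = 8 each; limma adjusted p = 1.56e-14), or 4.60-fold. Hspe1 also had the narrowest spread of the called members, with an SD of 0.08 in TIC. In Cy5, Hspe1 was 12.13, 12.27 and 12.65 in TIC, against 9.97, 10.18 and 10.59 in blood, a change of 2.08 ± 0.09 (limma adjusted p = 1.60e-13).

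Hspd1, the barrel, was measured by a brighter probe (A_51_P282706) and a dimmer one (A_52_P1172972). The brighter probe had a log2 ratio of 0.20, 0.28 and 0.50 in TIC, against -0.00, 0.17 and 0.44 in blood, so the groups overlapped, and the difference of 0.09 ± 0.07 was not called (limma adjusted p = 0.252). The same probe in Cy5 was 12.82, 13.35 and 14.14 in TIC, against 9.96, 10.21 and 10.58 in blood. That Cy5 change was 3.17 ± 0.15 (9.0-fold; limma adjusted p = 3.61e-13), and no TIC array overlapped with a blood array. In Cy3 the same probe was 3.08 ± 0.12 higher on TIC arrays (limma adjusted p = 2.15e-13), almost the same amount. The dimmer probe gave 1.17 ± 0.12 for TIC against the reference, a call, and 0.85 ± 0.13 for the difference from blood, which was under 2-fold. In Cy5 the dimmer probe was called too, at 1.78 ± 0.16, and in Cy3 it was 0.93 ± 0.13 higher on TIC arrays. Within an array, the Hspe1 ratio minus the Hspd1 ratio was 1.52 to 1.72 in TIC and -0.58 to -0.21 in blood, without overlap. In Cy5 the same difference between probes ran the other way, with a mean of -1.11 in TIC and -0.02 in blood. The ratio gap rests on the brighter Hspd1 probe, the one whose Cy3 was higher on TIC arrays.

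Hspa8, the constitutive HSP70, showed the same split between channels. Its brighter probe (A_51_P170371) had a log2 ratio of -0.41, -0.20 and 0.05 in TIC, against -0.50, -0.18 and 0.31 in blood, overlapping groups with a difference of -0.05 ± 0.10 (limma adjusted p = 0.707). In Cy5 it was 14.34, 15.03 and 15.67 in TIC, against 12.24, 12.48 and 12.90 in blood, which is 5.56-fold higher (2.47 ± 0.15; limma adjusted p = 8.56e-12). In Cy3 it was 2.52 ± 0.12 higher on TIC arrays, with net signals of 11902 to 28464 on TIC arrays and 3352 to 5071 on blood arrays. The dimmer probe (A_52_P12877) was called in Cy5 at 1.52 ± 0.10. By ratio the dimmer probe differed by 0.97 ± 0.10, just under 2-fold, and its groups did not overlap (0.60 to 1.09 in TIC, against -0.39 to 0.22 in blood). The probes of Hspa8 therefore disagreed by ratio and shared a direction in Cy5.

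Hspa1a, the classical inducible HSP70, was barely above background in blood. Its brighter probe (A_51_P117952) was well above background in Cy5 on 8 of 8 TIC arrays and 4 of 8 blood arrays, with net signals of 2570 to 24602 in TIC and 14 to 37.5 in blood. Normalized log2 Cy5 was 9.07, 10.11 and 11.29 in TIC, against 6.97, 7.14 and 7.37 in blood. The Cy5 change was 3.11 ± 0.24 (8.64-fold; limma adjusted p = 5.83e-10), without overlap. By ratio, however, the probe had -0.58, -0.00 and 0.35 in TIC, against 0.05, 0.12 and 0.32 in blood, and the difference of -0.21 ± 0.11 was not called (limma adjusted p = 0.104). Cy3 of this probe rose by 3.32 ± 0.23 on TIC arrays, where its net signal was 455 to 2127, against 17.5 to 30.0 on blood arrays. The second probe (A_52_P82741) changed by 3.14 ± 0.27 in Cy5 and by 2.38 ± 0.22 in Cy3, and its ratio to the reference was called in TIC at 1.06 ± 0.13. Its ratio was 0.76 ± 0.15 higher in TIC than in blood (limma adjusted p = 0.000179), under 2-fold and without overlap. This probe was well above background in Cy5 on 6 of 8 blood arrays. The probes of Hspa1a therefore disagreed by ratio and shared a direction in Cy5.

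Hspa1b, the near-identical copy of Hspa1a, stayed near background in the Cy5 channel of all 8 blood arrays. Its brighter probe (A_52_P52803) was well above background on all 8 TIC arrays, at a normalized log2 Cy5 of 6.83 to 8.10, a mean of 7.34 in TIC and a measured mean of 6.47 in blood. Its Cy5 signal was at least 1.74-fold higher in TIC, and the dimmer probe gave at least 1.11-fold. Both probes passed the filter on dim probes only through the TIC arrays, so no p is given for these bounds. For these bounds, each blood array entered with the larger of its measured value and the dimmest value that still counted as well above background there. In Cy3, where the blood arrays were at background too, it was at least 2.11-fold higher on TIC arrays, so no ratio change from blood is given. Whether a probe of Hspa1a or Hspa1b also reads the other copy was not tested, and their values are uncertain to that extent.

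Among the other inducible members, Hsp90aa1, the stress-inducible HSP90, changed alike in both measures. Its log2 ratio was 1.52, 1.65 and 2.14 in TIC, against -0.50, -0.21 and 0.07 in blood, without overlap. The difference was 1.95 ± 0.09 (3.86-fold; limma adjusted p = 2.93e-12). In Cy5 it was 13.06, 13.33 and 13.76 in TIC, against 11.42, 11.69 and 11.84 in blood, a change of 1.69 ± 0.09 (limma adjusted p = 3.97e-12). Cy3 of Hsp90aa1 was 0.26 lower on TIC arrays (log2 -0.26 ± 0.05).

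Dnajb1, the J-domain partner of HSP70, had a log2 ratio of 0.53, 1.05 and 1.26 in TIC, against -0.65, -0.03 and 0.21 in blood. The difference of 1.09 ± 0.13 was called (2.13-fold; limma adjusted p = 8.91e-07) and lay close to the 2-fold limit. It fell under that limit with plain background subtraction, at 0.95, and with the mean over its probes, at 0.98, which left 3 members called. Its second probe, at 0.87 ± 0.09, and its Cy5 change, at 0.85 ± 0.13, passed the adjusted p and fell under that limit, and in Cy5 the groups overlapped (11.38 to 12.33 in TIC, against 10.56 to 11.39 in blood). With other scalings of Cy5 it was called higher, at 1.03 with quantile, 1.76 with 75th percentile and 3.30 with spike-in scaling. Hsph1, the exchange factor of the HSP110 family, differed by 0.91 ± 0.12 by ratio (1.88-fold; limma adjusted p = 1.90e-06). Its ratio was 0.99, 1.15 and 1.78 in TIC, against 0.15, 0.22 and 0.67 in blood, and in Cy5 it was called at 1.26 ± 0.14 (2.39-fold; limma adjusted p = 9.86e-08).

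Hspb1, the small heat-shock protein, was at background in blood. Its Cy5 was well above background on 7 of 8 TIC arrays and on 0 of 8 blood arrays, and no fold is given for it between these groups. Against the reference its TIC ratio was -0.30 ± 0.07 (limma adjusted p = 0.00277), below 0 on all 8 arrays and under 2-fold. With the deposited ratios it was called lower than the reference, at -1.01.

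**Figure D3:**
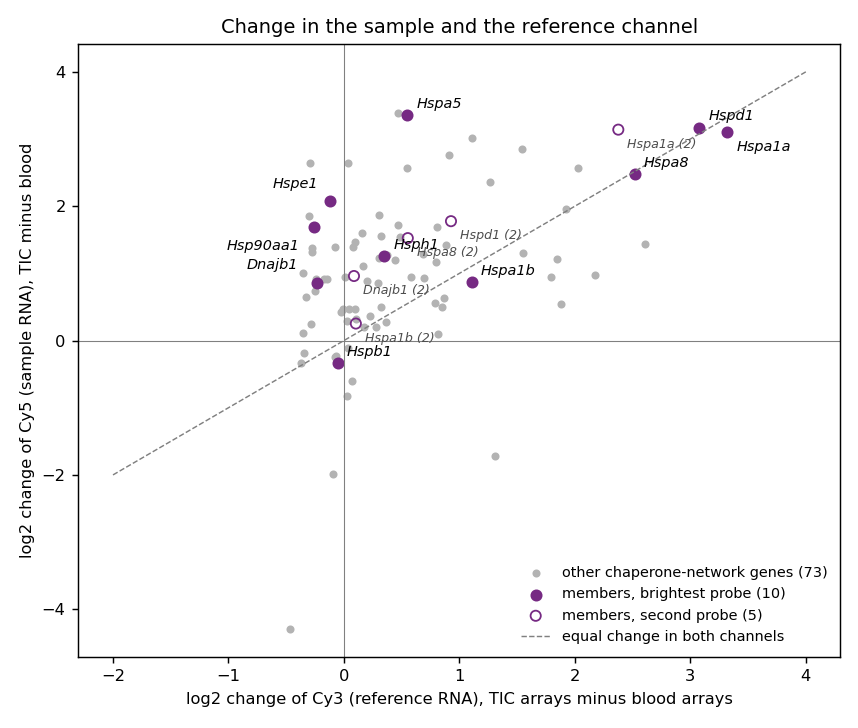
Log2 change of Cy5 signal, TIC minus blood (vertical axis), against the log2 change of Cy3 signal, TIC arrays minus blood arrays (horizontal axis), for the brightest probes of the 10 members (filled), their 5 second probes (open) and 73 other chaperone-network genes (grey). Hspd1, Hspa1a and Hspa8 lie near the dashed line of equal change in both channels, and Hspa5, Hspe1 and Hsp90aa1 lie far above it.

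The plot of change in the sample and the reference channel sets the members whose Cy3 level differed between the array sets by over 2-fold apart from the others. Cy3 was called higher on TIC arrays for 4 of the 10 members (Hspa1a, Hspd1, Hspa8 and Hspa1b) and lower for 0, where 8.93% of all genes were called, 7.48% higher and 1.45% lower. With quantile normalization of Cy3 alone 3 members were called, without Hspa1b, where 822 of all genes were called. Hspa1b was at background in Cy3 of the blood arrays. By adjusted p alone, with changes under 2-fold, Cy3 of Dnajb1 and Hsp90aa1 was lower on TIC arrays (limma adjusted p = 0.000382 and 9.43e-05). Cy3 of Hspa5 and Hsph1 was higher in the same way, at 0.55 and 0.35 (limma adjusted p = 1.51e-07 and 2.08e-05). The share of all genes passing such a p without the 2-fold limit was not counted here either. In raw signal, Cy3 amounted to a median of 2.0% of Cy5 for Hspa5 on TIC arrays, 2.9% for Hspe1 and 3.7% for Hsp90aa1, against 9.2% for Hspd1, 11.8% for Hspa1a and 12.5% for Hspa8. On blood arrays Cy3 was a median of 192%, 182% and 175% of Cy5 for Hspa5, Hspe1 and Hsp90aa1, and 129%, 93.8% and 144% for Hspd1, Hspa1a and Hspa8. When TIC Cy5 was set against the Cy3 of the blood arrays in place of its own Cy3, a comparison added after the data were seen, 8 members were called higher. Of all genes, 2258 were called higher there. In that comparison Hspa1a was at 3.91, Hspd1 at 3.45 and Hspa8 at 2.33 on the log2 scale.

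Set against the reference of their own arrays, 4 of 10 members were called higher in TIC and 0 lower, where 19.5% of all genes were called, 9.33% higher and 10.1% lower. Under the main normalization the 4 were Hspa5 at 2.51 ± 0.08, Hspe1 at 1.96 ± 0.04, Hsp90aa1 at 1.72 ± 0.07 and Hsph1 at 1.25 ± 0.09, and all 8 arrays lay above 0 for each. With the deposited ratios 4 members were called higher and 1 lower, Hspb1, where 3173 of all genes were called higher and 2588 lower. Dnajb1 at 0.97 ± 0.09 was just under 2-fold, with its second probe just over it at 1.01 ± 0.07. At an unadjusted p under 0.05, limma put Hspa1b, Hspa8 and Hspb1 lower, none by 2-fold (limma adjusted p = 0.0583, 0.0188 and 0.00277). Hspa1b and Hspa8 turned above 0 with median and spike-in centring. These tests against 0 leave out the spread between untreated mice.

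In blood of tumour-bearing mice, 0 of 10 members were called against the reference, where 0.748% of all genes were called. Changes lay between -0.30 ± 0.05 for Hspa5 and 0.35 ± 0.06 for Hsph1. By adjusted p alone, with changes under 2-fold, Hsph1, Hspa1a and Hspd1 were above the reference, on 8, 8 and 7 of 8 arrays. Hspa5, Hspe1 and Hsp90aa1 were below it, on 8, 7 and 7 of 8 arrays. Hspa8 was below it at an unadjusted limma p of 0.0404 only. The share of all genes passing such a p without the 2-fold limit was not counted. With median or spike-in centring, Hsph1 and Hspd1 turned below the reference, so the direction of these small changes depended on the centring.

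The normalization decided the ratio of several members, as the plot of the 4 normalizations shows. The median of all genes, TIC against blood, was 0.08 with loess, 0.42 with the deposited ratios, 0.80 with spike-in centring and 1.46 with median centring. Hspa5, Hspe1, Hsp90aa1 and Dnajb1 were called higher under all 4 normalizations, at 2.80 to 5.66, 2.15 to 5.03, 1.95 to 4.75 and 1.01 to 3.89. Hspa8 was at -0.05 with loess, 0.24 with the deposited ratios, 2.13 with spike-in centring and 2.78 with median centring, and Hspd1 at 0.09, 0.07, 2.34 and 2.99. Hspa1a was called lower with the deposited ratios, at -1.03, and higher with spike-in and median centring, at 1.30 and 1.95. In Cy5, the 7 called members were called higher under each of 4 scalings (loess with scaling between arrays, quantile, 75th percentile and spike-in), while the median of all genes was between -0.12 and 1.42. The quantile, 75th percentile and spike-in scalings used Cy5 alone, and 9, 8 and 9 members were called higher there. Of all genes, 2615, 3452 and 7065 were called higher in that order.

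**Figure D4:**
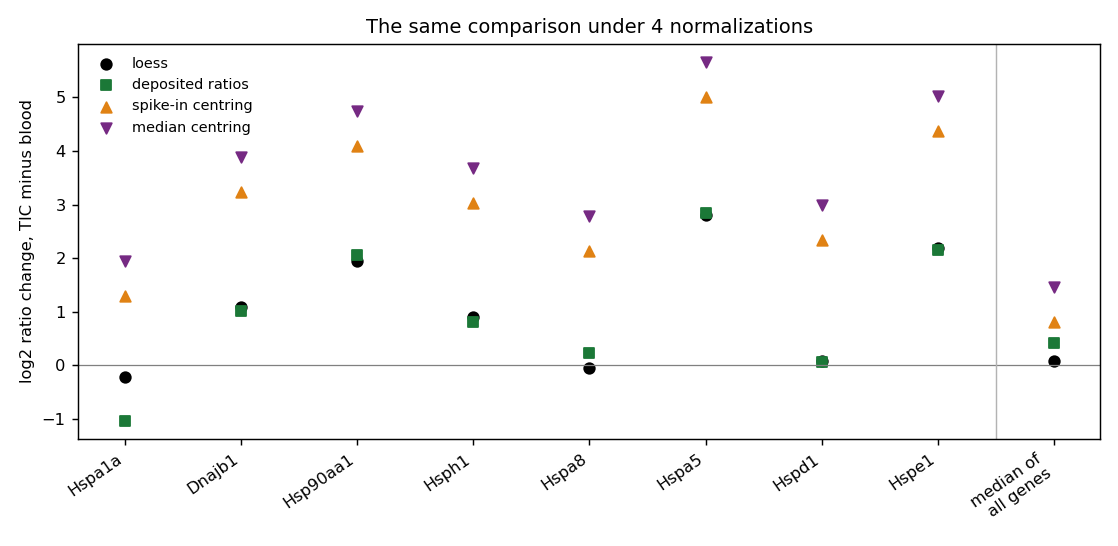
Log2 ratio change, TIC minus blood (vertical axis), of 8 members and of the median gene under loess (circles), the deposited ratios (squares), spike-in centring (upward triangles) and median centring (downward triangles). Hspa5, Hspe1, Hsp90aa1 and Dnajb1 stay above 1 throughout, and Hspa1a and Hspa8 lie on both sides of 0.

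The TIC samples with the highest values differed between members, by brightest probe. For Hspa1a, samples 897 and 898 were highest in Cy5, at 11.25 and 11.29, and 894 was lowest at 9.07. The same samples, 897 and 898, were highest for Hspa1b, at 8.10 and 8.09. Sample 898 was also highest for Hsp90aa1, at 13.76, Hsph1, at 11.83, and Dnajb1, at 12.33. Sample 893, in contrast, was highest for Hspa5, at 13.82, Hspd1, at 14.14, Hspe1, at 12.65, and Hspa8, at 15.67. The lowest value of Hspa5, Hspd1 and Hspa8 was in sample 889, at 12.69, 12.82 and 14.34. Among TIC arrays, 889 had the lowest share of probes well above background in Cy5, at 51.1%, and 898 the highest, at 65.8%. Samples 889 and 893 lay on slide 3, and 894, 897 and 898 on slide 4. The part of array strength and slide in these differences was not tested.

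Pairs of members were compared over the 8 samples of a group, 45 pairs at a time. By ratio in TIC, 0 pairs passed a Benjamini-Hochberg adjusted exact permutation p under 0.05 and 8 had an unadjusted p under 0.05. The highest was Hsp90aa1 with Hsph1 (Pearson r = 0.90, Spearman rho = 0.93; two-sided exact permutation p = 0.00367 and 0.00223, adjusted 0.147 and 0.10). In Cy5 the same pair passed, at r = 0.96 and rho = 0.98 (exact permutation p = 9.92e-05 and 0.000397, adjusted 0.00446 and 0.0179), and r was 0.89 without the 2 samples farthest from the median of Hsp90aa1. In blood by ratio, Hspa8 and Hspd1 had r = 0.93 and rho = 0.95 (exact permutation p = 0.000273 and 0.00114, adjusted 0.0123 and 0.0513), and r was 0.89 without the 2 farthest samples. No blood pair passed in Cy5, where 5 of 45 had an unadjusted exact permutation p under 0.05. A slide held 4 arrays, too few for a correlation within slides, and an error in an array's centring is shared by all members.

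Differences between classes within an array, which were not tested, ordered the TIC ratios by brightest probe as ER above mitochondrial above cytosolic constitutive. Within the mitochondrial class, the mean TIC ratio was 1.96 for Hspe1 and 0.29 for the brighter Hspd1 probe. The dimmer Hspd1 and Hspa8 probes had 1.17 and 0.94, so the step from Hspa8 to the mitochondrial class depended on the gene and probe. The Hspa5 ratio minus the Hspa8 ratio had a median of 2.67 in TIC (2.43 to 3.1), against -0.18 in blood (-0.37 to 0.22). The mean of Hspd1 and Hspe1 minus Hspa8 had a median of 1.29 in TIC (1.14 to 1.57), against 0.18 in blood (-0.12 to 0.24). The mean of the 6 inducible members minus Hspa8 had a median of 0.80 in TIC (0.46 to 1.16), against 0.21 in blood (-0.16 to 0.39), with Hspa1b and Hspb1 of blood at background. These used the brightest probes, and the Hspa8 probe among them is one whose Cy3 was higher on TIC arrays. In Cy5 the inducible members minus Hspa8 ran the other way, with a mean of -4.91 ± 0.58 in TIC, against -3.68 ± 0.19 in blood (SD, n = 8 each). Hsp90aa1 minus Hspa8 also did, at -1.66 in TIC and -0.88 in blood. Hspa5 minus Hspa8 kept its direction in Cy5, at -1.71 in TIC and -2.59 in blood, and the mitochondrial pair minus Hspa8 differed little, at -2.15 in TIC and -2.30 in blood. From blood to TIC, the Cy5 difference from the brighter Hspa8 probe thus rose for Hspa5 and fell for the mean of the inducible members. The dimmer Hspa8 probe changed by 1.52 in Cy5, less than Hsp90aa1 at 1.69, Hspe1 at 2.08 and Hspd1 at 3.17. The fall of Hsp90aa1 and the small difference of the mitochondrial pair therefore rest on the brighter Hspa8 probe. Heights of different probes cannot be compared, so no order of the classes is read from Cy5 within a group.

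The wider network was read from 5 lists that were likewise chosen with earlier results known. By ratio their counts stand beside 23.8% of all genes called, 12.1% higher and 11.8% lower. In Cy5 they stand beside 33.1%, 18.4% higher and 14.8% lower. All genes moved with the scaling too. By ratio, 4232 were called higher with the deposited ratios, 5619 with spike-in and 7374 with median centring. In Cy5, 3452 were called higher with 75th percentile and 7065 with spike-in scaling. The list counts under each scaling, given below, stand beside these. Of 21 tested ER folding and unfolded-protein-response genes (of 24), 9 were called higher in TIC than in blood by ratio and 1 lower, with a median of 0.90, and 11 were called higher and 0 lower in Cy5. By ratio, 12 were called higher with the deposited ratios, 17 with spike-in and 18 with median centring, and 0 lower. In Cy5, 17 were called higher and 1 lower with 75th percentile scaling, and 19 and 0 with spike-in scaling. Canx, the lectin chaperone calnexin, rose by 2.93 ± 0.08 by ratio (limma adjusted p = 1.11e-15), P4hb, a protein disulfide isomerase, by 2.91 ± 0.08 (limma adjusted p = 8.06e-16), and Pdia6, another disulfide isomerase, by 1.90 ± 0.09 (limma adjusted p = 2.25e-12). Hsp90b1, the ER HSP90, was at 1.31 ± 0.10, chosen after its value was seen. The gene called lower by ratio was Pdia4, a disulfide isomerase also chosen after its value was seen, at -1.17 ± 0.18, which turned to 0.32 and 0.97 with spike-in and median centring. In Cy5 Pdia4 was among the 11 genes called higher, so its direction was opposite in the 2 measures. There 1 of 8 blood arrays was well above background for Pdia4, so no size is given in Cy5. Its ratio difference from blood uses the same weak blood signal and is uncertain to that extent.

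Of 11 genes of mitochondrial chaperones and proteases, 5 were called higher and 0 lower by ratio (median 0.98), and the same counts held in Cy5. The number higher was 7 with the deposited ratios and 10 with spike-in or median centring, and in Cy5 it was 9 with 75th percentile and 10 with spike-in scaling, with 0 lower in each. Hspa9, the mitochondrial HSP70, was 2.03 ± 0.09 higher (limma adjusted p = 1.33e-12), the protease Htra2 1.48 ± 0.06 (limma adjusted p = 5.48e-13) and the protease subunit Clpp 1.37 ± 0.08 (limma adjusted p = 7.19e-11). Of the 8 subunits of TRiC, the cytosolic chaperonin that folds actin and tubulin, 3 were called higher and 0 lower by ratio (median 0.84), and 6 were called higher in Cy5. The number higher by ratio was 5 with the deposited ratios and 8 with spike-in or median centring, and in Cy5 it was 7 with 75th percentile and 8 with spike-in scaling. Cct5 was 2.60 ± 0.12 higher, Cct4 1.65 ± 0.09 and Cct8 1.08 ± 0.12 (limma adjusted p = 9.91e-13, 9.40e-12 and 1.94e-07).

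Of the 21 cytosolic co-chaperones, 4 were called higher and 4 lower by ratio (median -0.08, which turned to 0.14 with the deposited ratios, 1.30 with spike-in and 1.95 with median centring), and 7 higher and 2 lower in Cy5. By ratio the counts were 6 higher and 6 lower with the deposited ratios, 14 and 1 with spike-in centring, and 18 and 1 with median centring. In Cy5 they were 13 and 3 with 75th percentile scaling, and 18 and 1 with spike-in scaling. Ptges3, the HSP90 co-chaperone p23, was 2.15 ± 0.12 higher in TIC (limma adjusted p = 2.42e-11). The J-domain genes Dnajb2 and Dnajb6 were lower, at -3.82 ± 0.15 and -1.88 ± 0.11 (limma adjusted p = 1.91e-13 and 2.96e-11), but Dnajb6 turned to 0.18 and 0.83 with spike-in and median centring. Hsp90ab1, the constitutive HSP90, chosen after its value was seen, was at -0.63 ± 0.09 by ratio, which turned to 1.54 and 2.19 with spike-in and median centring, and at 1.21 ± 0.12 in Cy5. Its Cy3 was 1.84 ± 0.08 higher on TIC arrays, a split like that of Hspa8.

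Of 12 tested genes of the HSF1 list (of 14), 2 were called higher and 1 lower by ratio (median 0.29), and 4 higher and 1 lower in Cy5. By ratio the counts were 2 higher and 2 lower with the deposited ratios (median 0.42), 9 and 2 with spike-in centring (median 2.08), and 10 and 0 with median centring (median 2.74). In Cy5 they were 5 and 2 with 75th percentile scaling, and 10 and 1 with spike-in scaling. Hsf1 itself, chosen after its value was seen, was at 0.21 ± 0.09 by ratio and 0.32 ± 0.07 in Cy5, both under 2-fold. Dnaja1, a J-domain partner of HSP70, was 1.24 ± 0.09 higher (limma adjusted p = 1.90e-09). Hspb8, a small heat-shock protein, was not well above background in blood on any array, and its Cy5 signal was at least 6.14-fold higher in TIC. Against the reference Hspb8 was at 1.83 ± 0.16 in TIC (limma adjusted p = 5.62e-06). Ubb, a polyubiquitin gene, was at -3.02 ± 0.13 (limma adjusted p = 3.93e-13), lower in TIC, and no longer called with median centring, at -0.46. In Cy5 Ubb was at -1.72 in TIC against blood. In blood against the reference, 0 genes of the 5 lists were called.

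**Figure D5:**
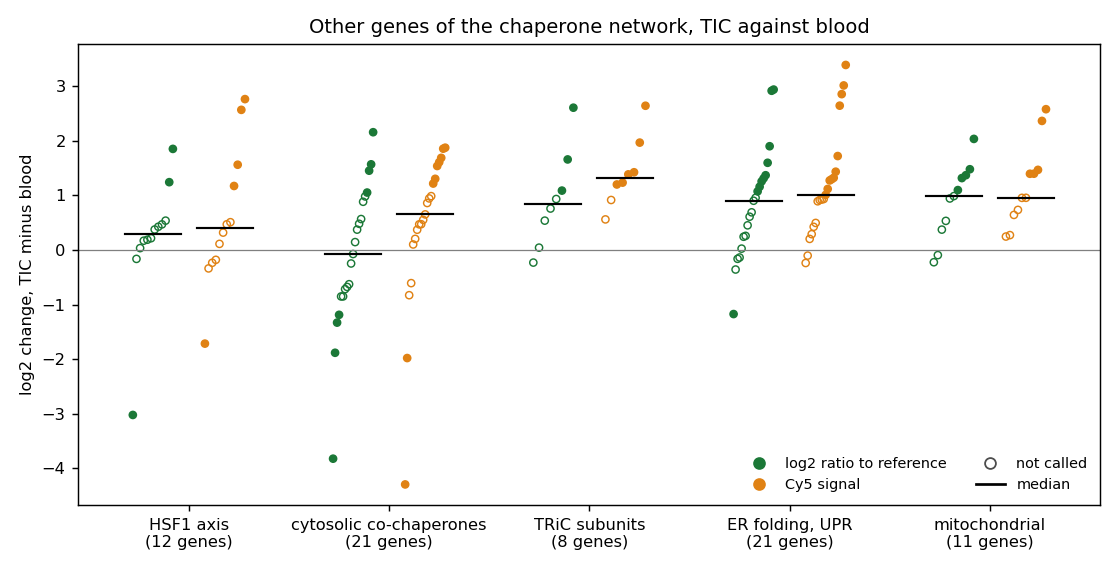
Log2 change, TIC minus blood (vertical axis), of the genes of 5 chaperone-network lists (horizontal axis) by ratio (green) and in Cy5 signal (orange); filled points were called, open points were not, and black lines are medians. The ER and mitochondrial lists have medians of 0.90 and 0.98 by ratio, and the co-chaperone list one of -0.08.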

How the data were processed

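Expression was measured on 16 Agilent 2-colour arrays, 8 with TIC RNA and 8 with tumour-bearing blood RNA in Cy5. Per the file headers, the authors extracted median spot and background intensity values with Feature Extraction 10.5.1.1 of Agilent, whereas version 9.1.3.1 stands in the submitters' processing notes. The deposited log10 ratio of Cy5 over Cy3 served as an alternative, and the series' value table differed from it by 0. Mean signals had been planned, but the files hold medians.

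Intensities were background corrected (normexp, offset 50) and normalized by loess within arrays, with control and outlier-flagged spots left out, in limma 3.58.1 (R 4.3.3). For single channels, Aquantile scaling followed. Of 41174 probes, 23374 had a gene symbol through their RefSeq accession. The 26494 probes tested were well above background in Cy5 on at least 4 of the 8 arrays of a group or in Cy3 on at least 8 of 16. limma fits used all 16 arrays between groups and 8 against the reference. A gene was represented by its brightest tested probe, and errors after ± are SE with n = 8 unless given as SD. The code was tested on simulated data. Pairs of members were tested by exact permutation (scipy 1.17.1).

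Beside the 10 members, up to 3 called genes of each list with the largest change between TIC and blood, and up to 2 against the reference, were eligible to be named. The members and lists were chosen with earlier results of these data known. Alternatives were background correction, normalization, probe filter, probe of a gene, slides, replicate block and left-out samples. The labels give separate sample numbers, so p-values measure the spread between these samples. The number of arrays limits the precision. Sequences are RefSeq's, build GRCm38.p6, and no gene coordinates were used.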

Additional observations from a re-analysis of the deposited data

Results flagged for a closer look

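Cy3, labelled as the same untreated blood RNA on every array, is outside the main measurement, and its level differed between the array sets for 5 probes of 4 members. On the log2 scale, Cy3 on TIC arrays was 3.32 and 2.38 above Cy3 on blood arrays for the 2 probes of Hspa1a, 3.08 for the brighter probe of Hspd1 and 2.52 for the brighter probe of Hspa8. For Hspa1b the fitted difference was 1.11, with the blood arrays at background, so that at least 2.11-fold is the bound. With quantile normalization of Cy3 alone, the differences of the brightest probes were 3.08 for Hspa1a, 2.66 for Hspd1 and 1.77 for Hspa8. Only these 3 members were called there, without Hspa1b, where 822 of all genes were called, 659 higher. The cause was not tested.

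Hspa5 moved in opposite directions against the reference, up on all 8 TIC arrays (mean 2.51) and down on all 8 blood arrays (mean -0.30), a difference of 2.80 (limma adjusted p = 1.56e-14). No sample stood apart in 55 sets of 8 values of the members by Dixon's test at its 95% critical value.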

How the results depend on the processing

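Hspa5, Hspe1 and Hsp90aa1 kept their direction and their call in TIC against blood, by ratio over 29 alternatives each and in Cy5 over 25 each. The centring moved most other values, and the cause was not tested. In TIC against blood, 2933 genes were called, against 5131 with plain subtraction, 7708 with median centring (7374 higher, 334 lower), 6766 with spike-in centring (5619 higher, 1147 lower) and 7006 with the deposited ratios. With median and spike-in centring, 8 members were called. In the same order, Hspa1a turned to 1.95 and 1.30 and Hspa8 to 2.78 and 2.13. Hspa8 turned to 0.24 with the deposited ratios and 0.052 within slides 2 and 4, and Hspd1 to -0.015 with plain subtraction and -0.018 within slides 1 and 3. With the mean over probes, Hspa1a was at 0.28 and Hspa8 at 0.46. Dnajb1 lost its call with plain subtraction, at 0.95, and with the mean over probes, at 0.98, and 3 members were called in each.

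In TIC against the reference, 2392 genes were called, against 4272 with plain subtraction, 7258 with median centring (6851 higher, 407 lower), 5752 with spike-in centring (4633 higher, 1119 lower), 5761 with the deposited ratios and 4077 against Cy3 of the blood arrays. With median centring, spike-in centring and Cy3 of the blood arrays, 8 members were called. In that order Hspa1a was at 2.08, 1.45 and 3.91, Hspa1b at 0.91, 0.27 and 1.30, and Hspa8 at 2.07, 1.44 and 2.33. Hspa1a was at 0.019 without background correction, Hspa1b at 0.028 within slides 2 and 4, and Hspa8 at 0.047 with the deposited ratios. With the mean over probes, Hspa1a was at 0.51 and Hspa8 at 0.37. Hspb1 was called lower with the deposited ratios, at -1.01.

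In blood against the reference, 92 genes were called, against 53 without background correction, 270 with plain subtraction, 892 with median centring (10 higher, 882 lower), 832 with spike-in centring (12 higher, 820 lower), 955 with the deposited ratios (326 higher, 629 lower), 61 within slides 1 and 3 and 152 within slides 2 and 4. Hsph1 turned to -0.31 and -0.30 with median and spike-in centring, Hspd1 to -0.48 and -0.46, and Dnajb1 to 0.0075 with the mean over probes. In Cy5, 4076 genes were called (2262 higher, 1814 lower), against 7699 with 75th percentile scaling (3452 higher, 4247 lower) and 7868 with spike-in centring (7065 higher, 803 lower).

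Leaving out each sample in turn gave 2844 to 3191 genes in TIC against blood, 2312 to 2625 in TIC against the reference, at least 75 in blood against the reference and 4031 to 4133 in Cy5, and 4, 4 to 5, 0 and 7 members. Without blood 893, Hspa8 in TIC against blood was at 0.020 (range -0.095 to 0.020). Without TIC 893, Hspa1a against the reference was at 0.036 (range -0.096 to 0.036), and without TIC 893 or 896, Dnajb1 against the reference passed 2-fold (range 0.93 to 1.04).

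Deviations of same-numbered TIC and blood samples correlated at -0.17 to 0.20 by ratio, over 0.1 in 4 of 8 pairs, with 2 samples closest to their own number, so the numbers were not taken as a pairing. With the sample number as a replicate block, 2933 genes and 4 members were called by ratio and 4076 genes and 7 members in Cy5, as without it. Each number occurs once in each group, so the block leaves the size of a change as it is. The equal counts therefore do not test the pairing. A dim probe such as that of Hspb1 limits what can be said about blood.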
